A study of Mus musculus with 7 samples.

Results

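The genes described here are 9 signals and receptors through which the bone marrow niche and haematopoietic stem cells are known to communicate: the receptors Cxcr4, Ackr3, Tek and Tie1, and the ligands Cxcl12, Angpt1, Angpt2, Kitl and Thpo. They were chosen by name from the 53458 genes in the deposited tables, and 7 of the 9 passed the filter on low counts that left 20314 genes for testing. RNA was sequenced from long-term haematopoietic stem cells (LT-HSCs) sorted from the marrow of aged C57/BL6 mice. The sort took cells without the lineage antigens Ter119, B220, CD3, Mac1 and Gr1, without Flt3 and CD48, and with Sca1, cKit and CD150. The 4 wild-type mice carried both alleles of Srp72 (Srp72+/+, WT), and the 3 heterozygous mice (Srp72+/-) carried 1. Srp72 encodes a subunit of the signal recognition particle, which brings ribosomes making secreted and membrane proteins to the endoplasmic reticulum, the route by which every ligand and receptor named here is made. Neither the exact age nor the part of the gene missing from the lost allele is given in the sources used here, and the 7 libraries are taken as 1 mouse each, since the series names 4 and 3 mice.

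A marrow niche is the set of stromal, endothelial and other cells around a stem cell. CXCL12 holds stem cells in the marrow through the receptor CXCR4, and ACKR3 binds the same chemokine without classical G protein signalling and removes it. Angiopoietin 1 activates the receptor tyrosine kinase TIE2, encoded by Tek, angiopoietin 2 is a context-dependent partner of the same receptor, and TIE1 is its orphan co-receptor. Stem cell factor, encoded by Kitl, maintains stem cells through the receptor KIT, and thrombopoietin, encoded by Thpo, is a cytokine of stem cell and platelet maintenance. In textbook accounts Cxcl12 and Kitl come mainly from perivascular stroma and endothelium, and thrombopoietin mainly from liver.

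The libraries held 18054322 to 35247472 estimated reads. WT 2 stood apart: its summed level of 15 HSC markers (Kit among them) was 243 CPM (counts scaled to library size), against 2635 to 3131 CPM in the other WT libraries and 1527 to 2655 CPM in Srp72+/-. Its 10 neutrophil markers summed to 40050 CPM, against 124 to 12570 CPM in the other 6 libraries, and its 9 erythroid markers to 8758 CPM, against 148 to 6414 CPM, with Srp72+/- 1 second in both. Srp72 itself stood at 99.6, 137, 103 and 88.4 CPM in WT 1 to 4, against 71.9, 45.7 and 110 CPM in Srp72+/- 1 to 3. The library labelled Srp72+/- 3 therefore lay inside the WT range, and Cxcl12, the member with the widest separation, is given below without it too. In a bulk sort, fewer cells of a type and less RNA per cell cannot be told apart.

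Of the 7 members tested, 0 passed an adjusted p of 0.05 in the quasi-likelihood test of edgeR, the same share as among all genes (0.0% of 20314), and each had an adjusted p of 0.9998. At an unadjusted p under 0.05 the count was 0 of 7 as well, with 1.8% of all genes past that limit. In CPM the groups overlapped in all 9 members, while 3.56% of tested genes had groups that did not overlap. In abundance corrected for length, the Angpt2 groups did not overlap over all transcripts but overlapped over protein-coding transcripts, as given below. No share over all genes was obtained on that scale. Fitted fold changes were above 0 for 4 members and below 0 for 3, with a median of 0.15 on the log2 scale against -0.01 over all tested genes. DESeq2 gave no p for Cxcl12 and called 0 of the other 6 tested members (0.0443% of all genes).

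Compared per unit of transcript length, the members ran from silent to well expressed. Length-corrected abundances (TPM) summed over protein-coding transcripts had a median over the 7 libraries of 20.6 for Angpt1, 14.0 for Cxcr4, 4.66 for Tie1, 3.07 for Tek, 0.769 for Cxcl12, 0.734 for Angpt2, 0.042 for Kitl and 0.011 for Ackr3, and Thpo was at 0. Angpt1, a ligand, was thus the member with the highest median. Over all transcripts its median of 25.8 TPM was above that of 93.8% of 21896 protein-coding genes, while Cxcl12, at 0.827 TPM, was above 50.4% and Kitl above 33.3%. Kit, the receptor for the Kitl product, was higher still, with an all-transcript median of 73.1 TPM. Kit protein was a sorting criterion, so its level is no finding.

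Neighbours in that order were not all separate. Angpt1 ranged over 0.441 to 34.3 TPM and Cxcr4 over 8.19 to 27.8 TPM, and Cxcl12 at 0.073 to 1.64 TPM overlapped Angpt2 at 0.12 to 1.54 TPM. Tie1 exceeded Tek in all 7 libraries on protein-coding transcripts, by 1.20 to 2.66 times. On all transcripts the ratio ran from 0.538 to 4.56, and Tek exceeded Tie1 in 4 of 7 libraries. The order of those receptors therefore depends on which transcripts are summed.

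**Figure D1:**
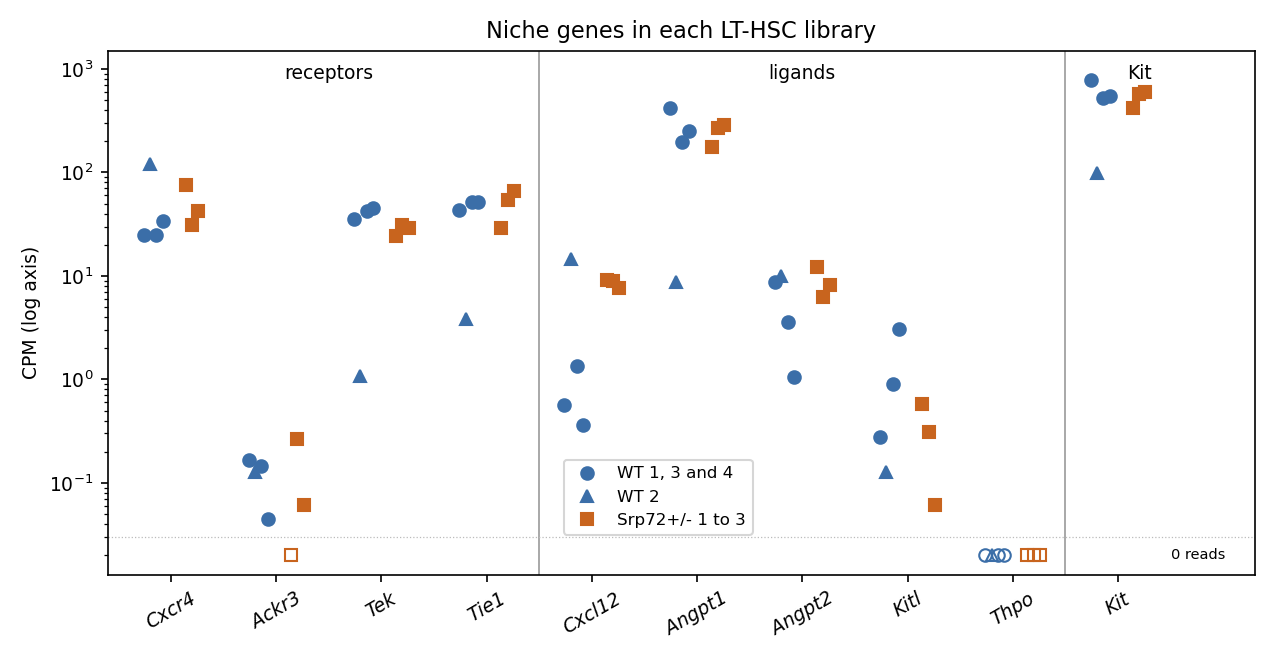
Level of each member and of Kit in each library, in scaled reads (CPM) on a log axis. Circles are WT 1, 3 and 4, triangles WT 2, squares Srp72+/-; open symbols on the bottom line are libraries with 0 reads. WT 2 is the lowest of the 7 libraries for Tek, Tie1, Angpt1 and Kit and the highest for Cxcr4 and Cxcl12. CPM is not corrected for length, so heights may be compared within a gene, not between genes.

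Cxcr4, the CXCL12 receptor, lies on chromosome 1 (GRCm38, 128588199 to 128592293, minus strand). It was read at 25.0, 122, 25.0 and 34.1 CPM in WT 1 to 4, against 75.6, 31.2 and 42.5 CPM in Srp72+/- 1 to 3. WT 2 was the highest library, at 4.86 times the median of the other WT libraries, and Srp72+/- 1, the library with the second most erythroid and neutrophil transcripts, came next. The WT mean was 51.4 ± 47.0 CPM (SD, n = 4), that of Srp72+/- was 49.8 ± 23.1 CPM (SD, n = 3), and edgeR gave a log2 fold change of -0.05 (SE 0.62, 95% interval -1.47 to 1.37, unadjusted p = 0.941). Without WT 2 the fold change was 0.83 (SE 0.34, edgeR unadjusted p = 0.0393, adjusted p = 0.9771), with groups that still overlapped in CPM. Without Srp72+/- 1 as well it was 0.40 (edgeR unadjusted p = 0.215). In TPM the groups without WT 2 did not overlap, at 8.19 to 8.92 in WT and 14.0 to 27.0 in Srp72+/-. The share of all genes with that order in TPM was not obtained. In CPM without WT 2, 4.76% of 19856 genes had Srp72+/- above WT with no overlap. TPM depends on how reads were divided between transcripts. The transcript of 902 bases took 35.7%, 23.5% and 4.78% of the gene's reads in WT 1, 3 and 4. In Srp72+/- 1 to 3 it took 25.2%, 41.5% and 44.6%. Cxcr4 is also expressed by maturing myeloid and B cells, and the part of such cells in these values was not tested.

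Ackr3, the scavenging receptor on chromosome 1 (90203980 to 90216751, plus strand), had 3, 2, 3 and 1 reads in WT and 0, 6 and 2 reads in Srp72+/-. A single library, Srp72+/- 2, exceeded 3 reads, the floor used here, and the gene was not tested.

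Tek and Tie1, the angiopoietin receptors, are both on chromosome 4 (Tek at 94739289 to 94874976, plus strand; Tie1 at 118471191 to 118490061, minus strand). The sequences before their RefSeq starts are shown because these receptors had the same pattern in WT 2, which the next paragraphs give. Each line holds the 250 bases before the start that RefSeq lists on GRCm38.p6, 5′ to 3′ on the gene's strand. They are chr4:94739039-94739288 for Tek and chr4:118489850-118490099 for Tie1, and capitals mark matches to the ETS core GGAAG on either strand. For Tie1, the part from 118489850 to 118490061 lies inside the gene as placed above, so it is not all upstream.

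Tek: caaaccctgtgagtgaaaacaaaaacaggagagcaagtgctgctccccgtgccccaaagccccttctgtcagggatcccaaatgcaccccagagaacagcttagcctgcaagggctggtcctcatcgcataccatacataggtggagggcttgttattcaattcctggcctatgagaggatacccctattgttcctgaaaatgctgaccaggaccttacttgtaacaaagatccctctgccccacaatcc

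Tie1: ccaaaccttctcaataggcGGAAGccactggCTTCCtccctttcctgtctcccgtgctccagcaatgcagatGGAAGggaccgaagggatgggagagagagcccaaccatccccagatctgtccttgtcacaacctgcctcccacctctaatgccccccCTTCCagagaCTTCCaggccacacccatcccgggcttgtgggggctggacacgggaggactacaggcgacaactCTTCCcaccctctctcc

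The Tie1 stretch holds 6 matches to GGAAG and the Tek stretch 0. Those at -231 and -219 from the RefSeq start lie before the Tie1 gene as placed above. Those at -178, -91, -81 and -17 lie inside it. Of 32851 promoters of that length in the RefSeq table, 64.1% hold at least 1 match, so the presence of the motif is common. How many hold 6 was not counted. Neither stretch matches the GATA motif AGATAA (9.99% of promoters) or the RUNX motif TGTGGT (14.0%), both strands searched. Promoter entries were matched for 7 of the 9 members, and not for Angpt1 and Angpt2. A match is only a run of letters, not a bound site.

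Tek was read at 35.8, 1.09, 42.5 and 45.2 CPM in WT 1 to 4, against 24.1, 31.4 and 29.1 CPM in Srp72+/- 1 to 3. WT 2 was at 2.56% of the median of the other WT libraries, on 17 reads, and with it the groups overlapped. The edgeR log2 fold change was -0.14 (SE 0.87, 95% interval -2.14 to 1.86, unadjusted p = 0.873). Without WT 2, every Srp72+/- library lay below every WT library, at 28.2 ± 3.69 CPM (SD, n = 3) against 41.2 ± 4.88 CPM (SD, n = 3), for a log2 fold change of -0.54 (SE 0.24, edgeR unadjusted p = 0.0466, adjusted p = 0.9771). Without WT 2, 5.34% of 19856 genes had Srp72+/- below WT with no overlap, and 2.23% had an unadjusted p under 0.05 in that direction. Without Srp72+/- 1 too, the value was -0.44 (edgeR unadjusted p = 0.124). The HSC markers lay the same way: without WT 2, 13 of 15 were fitted lower in Srp72+/-, 6 with an edgeR unadjusted p under 0.05 (median -0.52), and their part in the Tek value was not tested.

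Tie1 was read at 43.2, 3.79, 51.5 and 51.8 CPM in the 4 WT libraries, against 29.1, 53.6 and 66.6 CPM in the 3 Srp72+/- libraries. WT 2 was again far below, at 7.36% of the median of the other WT libraries, and the groups overlapped with or without it. The edgeR log2 fold change was 0.40 (SE 0.72, unadjusted p = 0.588) with 7 libraries and 0.03 (unadjusted p = 0.925) without WT 2. Across the 7 libraries Tek and Tie1 had a Pearson r of 0.971, and across the 6 without WT 2 an r of 0.432, so the likeness between them rests on that library.

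Cxcl12, the chemokine ligand, was the member whose Srp72+/- and WT libraries lay farthest apart once WT 2 was left out. It lies on chromosome 6 (117168535 to 117181367, plus strand), and its transcripts encode proteins that differ only at the C terminus. The coding ends are printed because the isoforms differ there: the last 30 of 267 shared bases in lower case, then in capitals the bases particular to each, stop codon included.

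Cxcl12 alpha: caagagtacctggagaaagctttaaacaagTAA

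Cxcl12 beta: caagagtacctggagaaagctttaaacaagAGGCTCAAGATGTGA

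Cxcl12 gamma: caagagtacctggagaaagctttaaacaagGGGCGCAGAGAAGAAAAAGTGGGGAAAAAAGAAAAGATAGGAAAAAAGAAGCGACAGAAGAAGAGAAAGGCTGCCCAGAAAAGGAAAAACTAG

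These code for 89, 93 and 119 residues, the isoforms known as alpha, beta and gamma. The long tail of gamma is rich in basic residues and is known to bind heparan sulphate. The sequences were cut from the reference genome with GENCODE M21. Over the 7 libraries the alpha transcript took 18.8% of the gene's estimated reads, beta 64.8% and gamma 11.3%, with 5.1% on a retained intron. Beta held 50.6%, 59.3% and 89.4% in Srp72+/- 1 to 3 and 59.4% in WT 2, but the other WT libraries had 8 to 28 reads in all, too few to give isoform shares. The last exons of beta (117178583 to 117181366) and gamma (117176086 to 117181367) overlap, so the authors' tool had to divide reads between them.

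Cxcl12 had 10, 227, 28 and 8 estimated reads in WT 1 to 4 and 171, 202 and 250 in Srp72+/- 1 to 3, or 0.560, 14.5, 1.34 and 0.361 CPM against 9.06, 9.02 and 7.58 CPM. WT 2 was the highest of all, at 25.9 times the median of the other WT libraries, and the other 3 WT libraries were the lowest. The edgeR log2 fold change with 7 libraries was 1.03 (SE 1.15, 95% interval -1.61 to 3.68, unadjusted p = 0.396, adjusted p = 0.9998). Without WT 2, Srp72+/- averaged 8.55 ± 0.843 CPM (SD, n = 3), WT averaged 0.756 ± 0.520 CPM (SD, n = 3), and every Srp72+/- library was at least 5.64 times every WT library. In that fit the log2 fold change was 3.50 (SE 0.62, 11.3 times, 95% interval 4.3 to 29.6 times), with an edgeR unadjusted p of 0.000295 and an adjusted p of 0.7909. Of 19856 genes, 6 (0.0302%) had a smaller p, 4.76% had Srp72+/- above WT with no overlap, and 2.61% had an unadjusted p under 0.05 in that direction.

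The difference without WT 2 was of like size when a further library was left out. Without WT 2 and Srp72+/- 1 the log2 fold change was 3.45 (edgeR unadjusted p = 0.00109, adjusted p = 0.9137), and without WT 2 and Srp72+/- 3 it was 3.57 (edgeR unadjusted p = 0.000816, adjusted p = 0.4817). No adjusted value passed the threshold in any of these fits, and WT 2 was left out after its values were known.

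Markers of stroma and endothelium, cells known to make Cxcl12, were low in sum, and neither sum ordered the libraries as Cxcl12 did. The 17 stroma markers summed to 28.0, 53.6, 46.6 and 79.9 CPM in the 4 WT libraries, against 31.0, 24.6 and 17.7 CPM in the 3 Srp72+/- libraries, and between 4 and 8 of the 17 had at most 3 reads in each library. Adipoq was at or under 3 reads in all 7, Pdgfra reached 33 reads in WT 2 and at most 13 elsewhere, and Lepr, a marker of Cxcl12-rich stroma, stood at 0.574, 1.70, 1.89 and 1.76 CPM in the 4 WT libraries, against 5.32, 3.27 and 0.503 CPM in the 3 Srp72+/- libraries. Col1a2, the member of that list with the smallest p, was lower in every Srp72+/- library than in every WT library (log2 fold change -1.58, edgeR unadjusted p = 0.00911, adjusted p = 0.9998). Cdh11, a cadherin of mesenchymal cells, was higher in every Srp72+/- library than in every WT library, at 0.581, 0.653, 0.563 and 0.516 CPM in the 4 WT libraries, against 0.685, 1.42 and 1.69 CPM in the 3 Srp72+/- libraries (log2 fold change 1.16, edgeR unadjusted p = 0.0674). With 7 libraries, 3.56% of all tested genes had groups that did not overlap. Ebf3, also on the stroma list, was read at 0.056, 1.54, 0.384 and 0.360 CPM in WT 1 to 4, on 1 to 24 reads. In Srp72+/- 1 to 3 it was read at 0.530, 1.34 and 0.500 CPM, on 10 to 30.1 reads. Like Cxcl12, Ebf3 was highest in WT 2 and lowest in WT 1, 3 and 4. Sparc, on the stroma list too, was read at 0.568, 11.5, 2.40 and 2.805 CPM in WT 1 to 4. In Srp72+/- 1 to 3 it was read at 5.18, 3.15 and 0.923 CPM. Sparc was thus highest in WT 2 and next in Srp72+/- 1 and 2, but Srp72+/- 3 lay below WT 3 and 4. Of the 8 stroma markers tested, 3 were fitted higher and 5 lower with all 7 libraries, and without WT 2 it was 4 higher and 3 lower of 7 (median 0.68). The 13 endothelial markers summed to 55.1, 16.1, 46.3 and 54.8 CPM in the 4 WT libraries, against 34.8, 41.7 and 34.2 CPM in the 3 Srp72+/- libraries, with Sox17 at or under 3 reads throughout and Cdh5 at 28 reads or fewer, but Kdr at 19 to 448 reads and Emcn at 0 to 410 reads.

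The erythroid sum ordered the libraries differently from the stroma sum. It was highest in WT 2 (8758 CPM) and then in Srp72+/- 1 (6414 CPM), Srp72+/- 2 (1184 CPM) and WT 4 (356 CPM). Srp72+/- 3, with Cxcl12 at 7.58 CPM, had an erythroid sum of 231 CPM, below that of WT 4, whose Cxcl12 level was 0.361 CPM. Without WT 2, however, all 9 erythroid markers were fitted higher in Srp72+/-, as Cxcl12 was, 5 of them with an edgeR unadjusted p under 0.05 (median log2 fold change 3.41). Neutrophil and B cell markers were also highest in WT 2 and next in Srp72+/- 1. What part any of these cells has in the Cxcl12 reads was not tested.

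**Figure D2:**
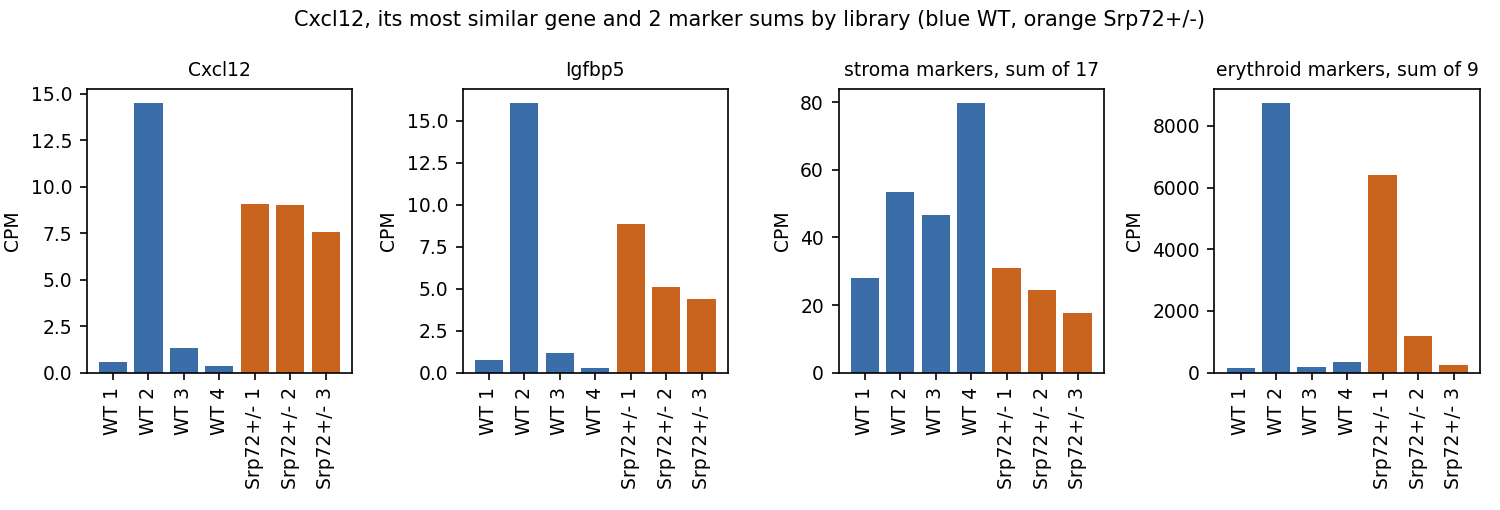
CPM by library for Cxcl12, for Igfbp5, the gene whose levels were most like it, and for the summed stroma and erythroid markers; blue bars are WT, orange bars Srp72+/-, and each axis starts at 0. Cxcl12 and Igfbp5 are high in WT 2 and all 3 Srp72+/- libraries. The stroma sum is highest in WT 4 (79.9 CPM), where Col1a1 and Col1a2 gave 27.0 and 33.9 CPM of it. The erythroid sum is highest in WT 2 and Srp72+/- 1.

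By likeness over the 7 libraries among 10100 protein-coding genes of at least 5 CPM, Igfbp5, an insulin-like growth factor binding protein, came nearest to Cxcl12 (Pearson r 0.978, and 0.979 without WT 2). It was read at 0.729, 16.1, 1.15 and 0.270 CPM in the 4 WT libraries, against 8.84, 5.13 and 4.37 CPM in the 3 Srp72+/- libraries, low in the same 3 WT libraries. Slc35f6 (r 0.974) and Cdk8, the Mediator kinase (r 0.973), followed. These are the best of 10100 over few points, and are given as a description.

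Angpt1, the TIE2 agonist, lies on chromosome 15 (42424723 to 42676977, minus strand). It was read at 419, 8.67, 199 and 249 CPM in the 4 WT libraries, against 175, 267 and 286 CPM in the 3 Srp72+/- libraries. WT 2 was at 3.48% of the median of the other WT libraries, and the groups overlapped. The means were 219 ± 169 CPM (SD, n = 4) and 243 ± 59.4 CPM (SD, n = 3), and edgeR gave a log2 fold change of 0.15 (SE 0.89, unadjusted p = 0.871), or -0.25 (unadjusted p = 0.451) without WT 2. The antisense gene Gm17473 shares 737 exon bases with Angpt1 and had 2.4 to 224 reads against 136 to 9442 for Angpt1. As the strand setting is not known, reads of that overlap cannot be assigned with certainty.

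The level of Angpt1 followed that of Kit. Across libraries the pair had an r of 0.997, and 0.97 without WT 2, which placed Kit among the 3 genes most like Angpt1, with Atmin (0.998) and Trpc6 (0.997). Kit was read at 776, 99.4, 526 and 548 CPM in the 4 WT libraries, against 417, 578 and 598 CPM in the 3 Srp72+/- libraries (edgeR log2 fold change 0.12, SE 0.56, adjusted p = 0.9998). WT 2 was the lowest, at 18.1% of the median of the other WT libraries.

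Angpt2, the context-dependent TIE2 ligand, lies on chromosome 8 (18690263 to 18741562, minus strand) inside Mcph1, which is on the opposite strand and shares 0 exon bases with it. It was read at 8.82, 9.99, 3.62 and 1.05 CPM in the 4 WT libraries, against 12.1, 6.22 and 8.11 CPM in the 3 Srp72+/- libraries. Of all 7 libraries WT 4 was the lowest and Srp72+/- 1 the highest, and the groups overlapped. In TPM over all transcripts they did not, at 0.12 to 1.325 in WT and 1.61 to 2.24 in Srp72+/-. A transcript of 652 bases without a coding sequence gave 1.63 TPM of the highest value, that of Srp72+/- 3. Over protein-coding transcripts the groups overlapped, at 0.12 to 0.968 TPM in WT and 0.606 to 1.54 TPM in Srp72+/-. The edgeR log2 fold change was 0.59 (SE 0.71, unadjusted p = 0.426), and 0.98 (unadjusted p = 0.193) without WT 2. In WT 1, 3 and 4 Angpt1 exceeded Angpt2 by 35.4 to 172 times in protein-coding TPM and in Srp72+/- by 10.2 to 36.1 times, while in WT 2 the ratio was 0.601.

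Kitl, which encodes stem cell factor, lies on chromosome 10 (100015630 to 100100416, plus strand). Its transcripts differ by an exon of 84 bases (28 codons, chr10:100080857-100080940) that the transcript of 273 codons has and the transcript of 245 codons lacks. That exon holds the main site at which the soluble form of the ligand is cut from the membrane. It is printed, in capitals between 15 flanking coding bases on each side, because it sets apart the transcripts to which the Kitl reads were assigned.

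Kitl exon: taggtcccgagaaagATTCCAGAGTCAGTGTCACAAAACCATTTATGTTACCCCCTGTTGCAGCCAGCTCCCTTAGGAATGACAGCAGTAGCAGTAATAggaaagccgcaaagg

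Kitl had 5, 2, 19 and 68 reads in WT and 11, 7 and 2 reads in Srp72+/-. WT 4 held the most, and all 68 were assigned to the transcript with the exon, while the 7 reads of Srp72+/- 2 lay on other transcripts. In WT 3 that transcript took 7.85% of the gene's 19 reads. On the CPM scale the levels were 0.280, 0.128, 0.911 and 3.06 in WT and 0.583, 0.312 and 0.061 in Srp72+/-, and the groups overlapped. The edgeR log2 fold change was -1.81 (SE 1.20, unadjusted p = 0.168), and -2.18 (unadjusted p = 0.0714) without WT 2. At these counts 1 library sets the WT mean.

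Thpo, the thrombopoietin gene on chromosome 16 (20724454 to 20734511, minus strand), had 0 reads in all 7 libraries. With 151448345 reads in total, 3 reads would be 0.0198 CPM on unscaled totals, which is the level that a count of 0 allows, for counting error only.

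**Figure D3:**
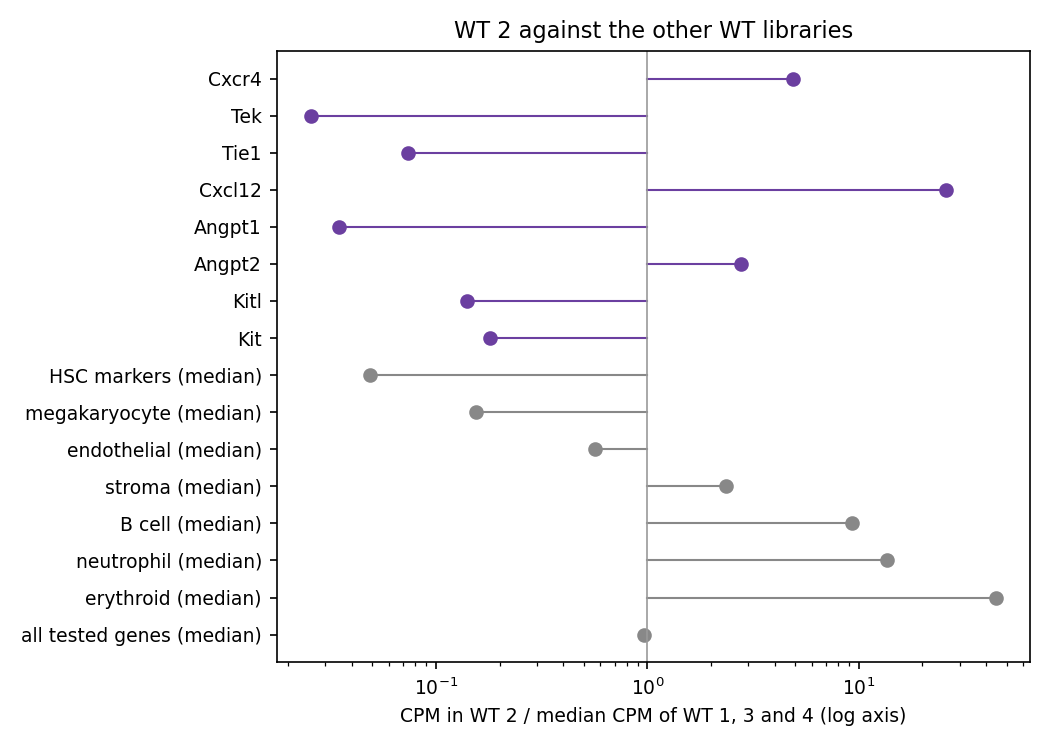
CPM in WT 2 divided by the median of WT 1, 3 and 4 (log axis), for each member above the floor, for Kit (purple) and as the median over tested genes of each marker list (grey). Tek, Tie1 and Angpt1 lie below 0.1 with the HSC markers (0.0489). Cxcr4, Cxcl12 and Angpt2 lie above 1, as do the neutrophil (13.6), erythroid (44.3), B cell (9.27) and stroma (2.35) markers. Endothelial markers (0.568) lie below 1.

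Set side by side, the members took opposite sides in WT 2. Tek, Tie1 and Angpt1 were under 0.1 times the median of the other WT libraries, as were 11 of 15 HSC markers and 4.95% of all tested genes. Cxcr4, Cxcl12 and Angpt2 were over 2 times that median, as were 17.4% of all tested genes and all tested neutrophil and erythroid markers. So were 5 of 6 tested B cell markers, 7 of 8 macrophage, 6 of 6 T and NK cell, 4 of 8 stroma and 2 of 10 endothelial markers. WT 2 was the lowest of the 7 libraries for 26.6% of tested genes and the highest for 22.9%.

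Receptors and ligands were compared as sums within each library. In TPM over all transcripts, the 4 receptors summed to 17.6, 28.2, 27.8 and 21.8 in WT and 35.9, 32.8 and 25.9 in Srp72+/-, and the 5 ligands to 42.1, 3.0, 23.8 and 26.2 in WT and 23.3, 40.6 and 29.0 in Srp72+/-. The ratio of receptors to ligands was 0.419, 9.42, 1.17 and 0.832 in WT and 1.54, 0.808 and 0.893 in Srp72+/-. WT 2 was the single high library, and the other WT libraries overlapped with Srp72+/- in that ratio. On protein-coding transcripts the receptor sums were 16.3, 28.1, 18.1 and 17.1 TPM in WT and 32.2, 25.2 and 20.7 TPM in Srp72+/-. Without WT 2 every Srp72+/- sum thus lay above every WT sum, an ordering that was not tested and that was absent over all transcripts. Among the receptors only Cxcr4 had that order, at 8.19 to 8.92 TPM in WT 1, 3 and 4 and 14.0 to 27.0 TPM in Srp72+/-. How common that order is in TPM over all genes was not obtained. Tek, Tie1 and Ackr3 overlapped, and so did Cxcr4 in CPM. Angpt1 made up 85.9% to 98.5% of the ligand sum outside WT 2 and 21.1% in it, and Cxcr4 made up 32.0% to 75.1% of the receptor sum outside WT 2 and 98.6% in it. Outside WT 2 the ligand sum was therefore close to the Angpt1 level. In WT 2, where the sum was 3.0 TPM, Cxcl12 gave 1.46 TPM of it.

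**Figure D4:**
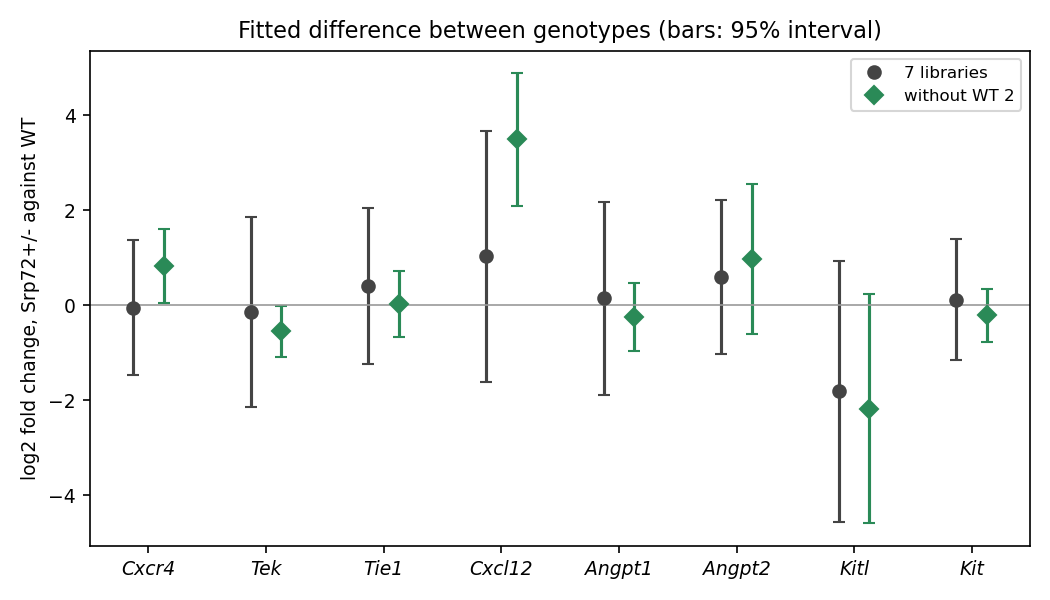
Fitted log2 fold change of Srp72+/- against WT for the 7 tested members and for Kit, with 7 libraries (circles) and without WT 2 (diamonds); bars are 95% intervals from edgeR, and 0 is no difference. With 7 libraries every interval spans 0; without WT 2 those of Cxcr4, Tek and Cxcl12 do not, although no adjusted p passed 0.05.

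Leaving out WT 2 brought the members with an unadjusted p under 0.05 from 0 to 3 of 7 (Cxcr4, Tek and Cxcl12), while the share over all genes went from 1.8% to 4.84%. In CPM, groups that did not overlap were then seen in 2 of 7 members (Tek and Cxcl12) and 10.1% of genes. Its omission also narrowed the intervals: the SE of Tek went from 0.87 to 0.24 and that of Cxcl12 from 1.15 to 0.62. Without WT 2 and Srp72+/- 1, 1 member (Cxcl12) and 4.03% of genes had an unadjusted p under 0.05. Without WT 2 and Srp72+/- 3, 2 members (Cxcr4 and Cxcl12) and 7.33% of genes did, and 0 members and 0.0047% of genes passed the adjusted threshold.

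The pathways behind the receptors were described with lists of their signalling genes, each counted in the edgeR fit of 7 libraries, and 0 genes of any list passed the adjusted threshold. All 24 genes of CXCR4 signalling were tested, with 9 fitted higher and 15 lower in Srp72+/- and a median log2 fold change of -0.11. The smallest p was that of Grk5, a kinase that desensitises G protein-coupled receptors, at 3.75, 10.6, 4.60 and 3.33 CPM in the 4 WT libraries, against 12.3, 11.9 and 6.28 CPM in the 3 Srp72+/- libraries (log2 fold change 0.87, edgeR unadjusted p = 0.13). Gnai3, an inhibitory G protein subunit, and Rgs2, a regulator of G protein signalling, followed at -0.55 and -0.72.

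For TIE signalling, 13 of 16 genes were tested, with 4 fitted higher and 9 lower and a median of -0.08. Dok2 and Dok1, docking proteins downstream of receptor kinases, were at 0.64 and 0.34, and Pik3r1, a PI3 kinase regulatory subunit, was at -0.20. Of the 15 KIT signalling genes 3 were fitted higher and 12 lower (median -0.20). Gab2, an adaptor that KIT uses to reach PI3 kinase, was at 43.4, 44.4, 39.1 and 45.2 CPM in the 4 WT libraries, against 36.6, 33.4 and 31.2 CPM in the 3 Srp72+/- libraries (log2 fold change -0.35, edgeR unadjusted p = 0.122, adjusted p = 0.9998). Its groups did not overlap, as was so for 3.56% of all tested genes. Socs1 and Ptpn6, which dampen cytokine signals, were at -1.05 and -0.31.

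Of 28 other niche ligands 19 were tested, 9 fitted higher and 10 lower (median -0.07), led by Wnt5a at -1.73, the FLT3 ligand gene Flt3l at 0.47 and the NOTCH ligand Jag1 at -0.86.

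Among 23 adhesion and homing receptors, 7 were fitted higher and 16 lower (median -0.14), and 1 had an unadjusted p under 0.05, beside 1.8% of all genes. That gene was Cdh2, N-cadherin, at 0.448, 0.384, 0.096 and 0.135 CPM in the 4 WT libraries, against 1.27, 0.714 and 0.879 CPM in the 3 Srp72+/- libraries, with no overlap (log2 fold change 1.84, edgeR unadjusted p = 0.0326, adjusted p = 0.9998). These levels are near the floor: 3 reads equal 0.144 CPM in WT 3 and 0.135 CPM in WT 4, and both libraries were at or under that. Itga9, an integrin subunit, was lower in every Srp72+/- library than in every WT library, at 3.79, 2.15, 2.30 and 5.68 CPM against 1.84, 1.36 and 1.40 CPM (log2 fold change -1.18, edgeR unadjusted p = 0.0596). Groups that did not overlap were seen in 3.56% of all tested genes. Ptger4, a prostaglandin E2 receptor, was at -0.82 with overlapping groups. Without WT 2 its groups did not overlap, as for 5.34% of genes in that direction, and it was at -1.06 (edgeR unadjusted p = 0.00581). In that fit 2 genes of the list were higher and 3 lower at an unadjusted p under 0.05, beside 4.84% of all genes. None passed the adjusted threshold.

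For the other members the genes most alike over 7 libraries were Tmem14c for Cxcr4 (r 0.992, and 0.986 without WT 2), Dkkl1 for Tek (0.999 and 0.977), Dlg4 for Tie1 (0.996 and 0.961) and Hspbap1 for Angpt2 (0.980 and 0.995). The median r of all 10100 genes with these members lay between -0.05 and 0.03. These correlations share the 7 libraries and the contrast of WT 2 with the rest.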

How the data were processed

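RNA was measured in 7 libraries of sorted LT-HSCs, 4 WT and 3 Srp72+/-, with amplification by the NuGEN Ovation V2 system before TruSeq V2 library construction, per the labels' protocols. Reads carry no molecular identifiers, so a limit from a read number covers counting error alone. Per transcript, the deposited tables hold estimated counts (expected counts), TPM and effective lengths, made with Salmon 0.12.0 with the builds mm10 and GRCm38.p6, per the submitters' processing notes. Not given in the sources used here are the transcript release, the strand setting and any bias correction. The members and the gene lists were chosen with earlier results of these data known.

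Estimated counts and TPM were summed per gene over the 136176 of 136288 transcripts that matched GENCODE M21 (0.0413% to 0.0622% of reads did not), giving 53458 genes. Sums were rounded, filtered with filterByExpr (minimum count 10, minimum total 15), scaled by TMM and tested by quasi-likelihood in edgeR 4.0.16, run in R 4.3.3, with no covariate, all 7 libraries and Benjamini-Hochberg adjustment over 20314 genes. Fold changes are Srp72+/- against WT. CPM uses TMM library sizes, and 3 reads, the floor, equal 0.091 to 0.192 CPM. The biological coefficient of variation was 0.628. The procedure was tested on simulated data. The series names as many mice as libraries, so libraries were treated as separate animals.

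Beside the members, Kit was named, as were the 3 tested genes with the smallest p in each pathway list and the 3 protein-coding genes most correlated with each member of at least 5 CPM, some of them left out of the text. A gene and a pathway list of the plan are not reported here. Marker genes were picked after their values were seen. Correlations used log2 CPM (prior count 2). Promoter sequences are from RefSeq on GRCm38.p6. Alternatives were RLE scaling, no filter and a stricter filter, a transcript length offset, DESeq2 1.42.0, voom with quality weights in limma 3.58.1, the replicate number as a block, an FDR of 0.1 and leaving out libraries. The omission of WT 2 with Srp72+/- 3 and the protein-coding TPM were added after seeing the data.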

Additional observations from a re-analysis of the deposited data

Results flagged for a closer look

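In WT 2 the levels of Tek (1.09 CPM) and Tie1 (3.79 CPM) lay far below those of the other WT libraries. The gap from WT 2 to the next library, as a share of the range of the 4 on a log scale, was 0.936 for Tek and 0.93 for Tie1, each above Dixon's 95% critical value for 4 samples. Chance alone marks about 1 in 20 groups, and these genes share the library, so they are not independent. Angpt1 (0.807) and Cxcr4 (0.805, at the high end) came close to that limit in the same library.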

How the results depend on the processing

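Of 125 fits of the 7 tested members and Kit under alternative settings, 105 kept the direction of the fold change and 20 turned it. Cxcl12 (0.61 to 3.57 on the log2 scale), Angpt2 (0.21 to 1.25) and Kitl (-2.94 to -0.32, 13 fits) kept theirs in every fit made; Kitl fell under the filter without WT 3, without WT 4 and with the stricter filter. Without WT 2 the value turned for Cxcr4 (0.83), Angpt1 (-0.25) and Kit (-0.21). Without WT 2 and Srp72+/- 1 it turned for Cxcr4 (0.40), Angpt1 (-0.064) and Kit (-0.067). Without WT 2 and Srp72+/- 3 it turned for Cxcr4 (0.92), Tie1 (-0.24), Angpt1 (-0.39) and Kit (-0.31). Cxcr4 also turned with a length offset (0.034), with voom (0.51), without Srp72+/- 2 (0.17) and without Srp72+/- 3 (0.05). Tek turned with a length offset (0.019), without WT 3 (0.034) and without WT 4 (0.078), and Kit with voom (-0.063). With 1 library left out at a time, the ranges were -0.51 to 0.83 for Cxcr4, -0.54 to 0.078 for Tek, -0.25 to 0.67 for Angpt1 and -0.21 to 0.44 for Kit. The cause was not tested.

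The count of members with an unadjusted p under 0.05 was 0 with 7 libraries and 0 to 3 when 1 library was left out, the 3 arising without WT 2. It was 1 with voom (Cxcl12), 1 without WT 2 and Srp72+/- 1, and 2 without WT 2 and Srp72+/- 3, while the count past the adjusted threshold was 0 throughout. Over all genes, 365 had an unadjusted p under 0.05, against 1133 with no filter, 552 with DESeq2, 928 with voom, 849 without WT 2 and Srp72+/- 1, 1560 without WT 2 and Srp72+/- 3, and 302 to 962 when 1 library was left out, the highest without WT 2. Past the adjusted threshold were 0 genes with edgeR, 9 with DESeq2, and 0 to 1 with 1 library left out, the 1 being Gm28439 without WT 4. Without WT 2 and Srp72+/- 3 there was 1, Igkv16-104. These were named after their values were seen.

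Replicate numbers did not pair the libraries: deviations of same-numbered libraries correlated at -0.316, -0.162 and 0.002. With the replicate block, 139 genes had an unadjusted p under 0.05 and 0 passed the adjusted threshold. The block turned Cxcr4 (0.21) and Tek (0.79).

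The ratio of receptors to ligands had a median of 0.893 in TPM, 0.517 in CPM, 0.873 in protein-coding TPM and 0.863 without WT 2. Depth limits Ackr3, Kitl and Thpo, with 3 reads or fewer in 6, 2 and 7 of 7 libraries. With a coefficient of variation of 0.628 and 3 or 4 libraries a group, the intervals with all 7 libraries span 0 for each tested member. As ratios of Srp72+/- to WT they ran from 0.362 to 2.59 in Cxcr4, 0.226 to 3.62 in Tek and 0.423 to 4.14 in Tie1. For the ligands they ran from 0.328 to 12.8 in Cxcl12, 0.272 to 4.52 in Angpt1, 0.491 to 4.63 in Angpt2 and 0.0428 to 1.91 in Kitl. Differences inside these limits are not excluded.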
